A study of Mus musculus with 18 samples.

Results

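Transcripts of complement and coagulation factors were examined in cultured mouse hepatocytes given interleukin-6 (IL-6) and then hepatocyte growth factor (HGF). The set was a named list of 35 complement, lectin pathway and coagulation genes, with C1s read as C1s1. Of these 35 genes, 32 were measured by a probe set assigned to a single gene, among 18193 genes measured on the array. C3 and Cpb2 had no probe set under their name in the array annotation, and C4b shared its probe set with C4a, so these 3 were not analysed here. RNA came from primary hepatocytes of male C57BL/6N mice aged 8 to 12 weeks, cells of a single animal or of a small pool, plated on collagen I, held in serum-free medium with dexamethasone and then moved to starvation medium without it. Stimulated cells received IL-6 at 40 ng/ml, followed by HGF at 40 ng/ml in the later samples. Of the 18 arrays, 4 followed IL-6 at 1, 2, 3 and 4 h and 8 followed IL-6 plus HGF at 5, 6, 7, 8, 9, 10, 12 and 24 h. Unstimulated cells gave 5 controls (0, 4, 8, 12 and 24 h) and 1 earlier control at -5 h. Neither HGF alone nor IL-6 alone after 4 h was analysed here, so the effect of HGF cannot be told apart from that of more hours with IL-6. Each condition and hour had 1 array, and no source states that dishes came from separate animals. Hours therefore stood in for replicates, and the spread behind each p-value comes from hours and dishes and may be technical. With the hour as a block, it is the spread of the stimulus difference between hours. For a slope it is the scatter about the line.

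Most plasma complement and coagulation factors are made by hepatocytes and secreted. In complement, C1 proteases or the mannose-binding lectins with their MASP proteases start a cascade that cleaves C4 and C2, activates C3, and ends with the terminal components, which build a pore in the target membrane. In coagulation, vitamin K-dependent serine proteases act in sequence to make thrombin, which turns fibrinogen into fibrin, while protein C with its cofactor protein S slows the cascade and plasmin dissolves the clot. IL-6 signals through STAT3 and is the classical inducer of the hepatic acute-phase response, in which some plasma proteins rise and others fall. HGF acts on the receptor tyrosine kinase Met and is a growth factor for hepatocytes.

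The stimulus was visible in IL-6 response genes. Socs3, a feedback inhibitor of STAT signalling, was 3.51 ± 0.32 log2 higher with IL-6 than in early controls (SE, adjusted p = 2.44e-05), and Cebpd, an acute-phase transcription factor, was 2.76 ± 0.21 log2 higher (adjusted p = 2.01e-06), both by limma with Benjamini-Hochberg adjustment. The mean log2 level of 6 measured hepatocyte markers (of 7 listed) ranged from 12.65 to 13.47 in the 5 controls, 13.29 to 13.47 with IL-6 and 12.10 to 13.15 with IL-6 plus HGF. The 12 Kupffer cell markers averaged 7.01 to 7.78, 7.05 to 7.26 and 6.96 to 7.34 in the same order, and the 11 liver endothelial markers 6.89 to 7.32, 6.82 to 7.27 and 6.58 to 7.08. Both 24 h arrays stood apart from the rest, with mean correlations to the other arrays of 0.983 in control and 0.981 with IL-6 plus HGF, as did the IL-6 plus HGF array at 10 h with 0.989, against 0.990 to 0.994 elsewhere. Counts of calls at the matched hours and of slopes with IL-6 plus HGF are given with and without the 24 h arrays, and the slope counts also without the array at 10 h. These are bulk RNA values, in which fewer cells of a type and less RNA per cell cannot be told apart.

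Across the set, levels under IL-6 plus HGF lay below control at the matched hours, while protein S stood out in the other direction. At 8, 12 and 24 h, 15 of the 32 members were lower than control and 1, Pros1, was higher (46.9% and 3.12% of the members, limma, adjusted p under 0.05 over all genes, hour as a block). Among all 18193 genes the same test called 6.46% lower and 2.53% higher. The median difference of the members was -0.36 log2 and that of all genes 0.01, and 30 of the 32 members had a negative difference. Of all 18193 genes, 8631 had a negative and 9562 a positive difference. Over all genes the test called 1176 lower and 461 higher. These calls numbered 894 and 676 with each array centred on its median, and 873 and 553 after quantile normalization. In the same order, 10 and 9 members were then lower, and 1 was higher in each case. Hour by hour, the median difference of the members was 0.01 at 4 h, when the cells had received IL-6 alone, then -0.20 at 8 h, -0.51 at 12 h and -0.38 at 24 h. At 4 h 17 members were above control and 14 below, at 8 h 29 were below, at 12 h 30 and at 24 h 28.

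**Figure D1:**
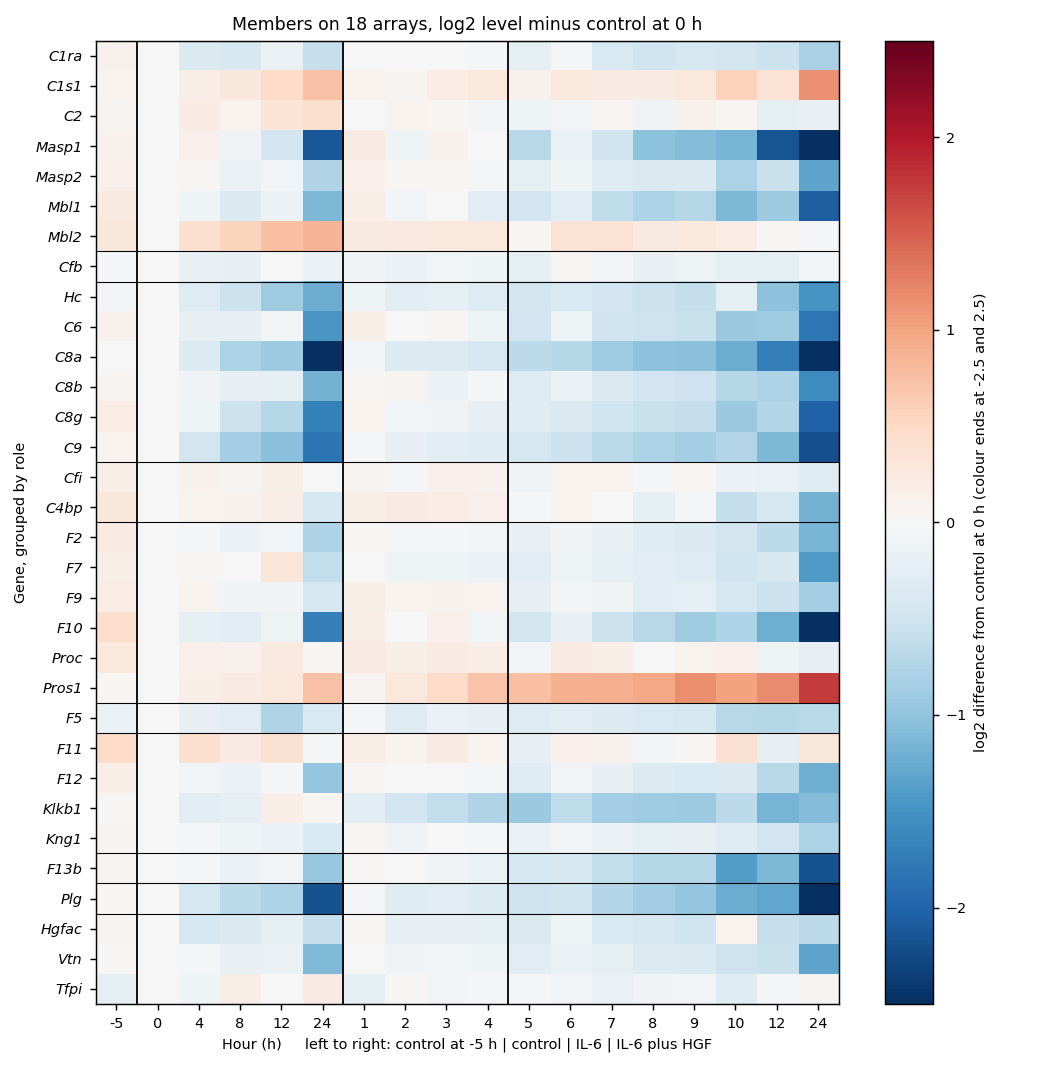
Log2 level of the 32 measured members (rows, grouped by role) on each of the 18 arrays (columns, by condition and hour) minus the control at 0 h; red is higher and blue lower. The Pros1 row turns red with IL-6 from 2 h on and the Klkb1 row blue, while many rows, among them those of the terminal complement components, turn blue with time in both conditions and are darkest at 24 h.

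The hour block and the pairs of arrays decided many of these calls. Without the pair at 24 h, 3 members were lower and 1 higher, beside 552 and 207 of all genes. Without the pair at 12 h the members' counts were again 3 and 1, beside 407 and 178 of all genes, and without the pair at 8 h they were 11 and 1, beside 615 and 228. Masp1, Klkb1, F13b and Pros1 passed the test in all 3 of these fits. Without the hour block, Klkb1 alone passed, beside 94 lower and 48 higher of all genes. With 4 condition means over 17 arrays in place of matched hours, 3 members were lower and 1 higher, beside 1092 and 516 of all genes. Malat1, a nuclear RNA, was also 1.56 ± 0.21 log2 higher with IL-6 plus HGF at the matched hours (adjusted p = 0.00901). Neat1, the other nuclear RNA listed, differed by 0.17 and did not pass the test. Its differences were 1.61, -1.37 and 0.25 at 8, 12 and 24 h. Markers of other liver cell types were measured in the same comparison. All 12 Kupffer cell markers had a negative difference, with a median of -0.17 log2, and Cd68 was lower (-0.73 ± 0.16, adjusted p = 0.0405). Of the 11 liver endothelial markers 9 had a negative difference, with a median of -0.16, and Oit3 (-0.53 ± 0.08, adjusted p = 0.0132) and Clec4g (-0.70 ± 0.14, adjusted p = 0.0290) were lower, although the other probe set of Clec4g differed by 0.00. The 6 hepatocyte markers all had a negative difference, with a median of -0.24. Of 10 stellate cell and fibroblast markers 7 had a negative difference, with a median of -0.11, and Rgs5 was lower (-0.36). Of 4 measured cholangiocyte markers 3 had a positive difference, with a median of 0.12, and Sox9 was higher (0.55). Without the pair at 24 h Malat1 and Sox9 were still higher, and no Kupffer, endothelial or stellate cell marker passed. The part of Malat1 and of these markers in the members' differences was not tested.

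**Figure D2:**
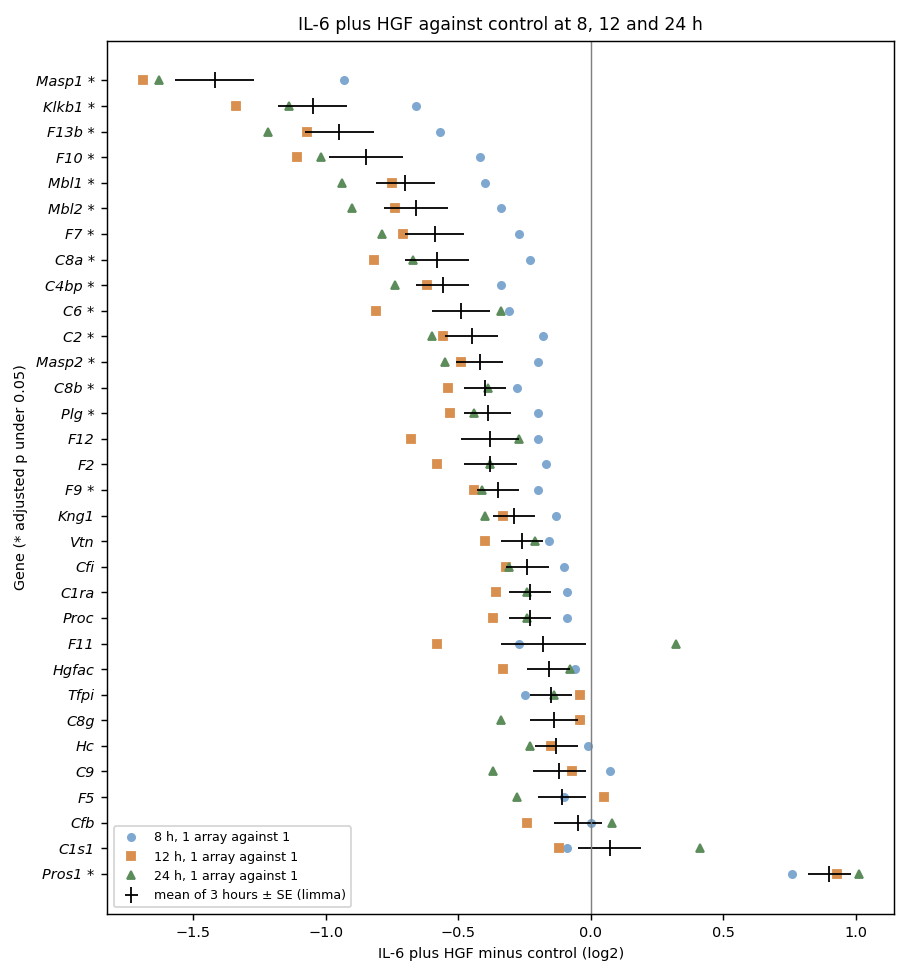
Difference in log2 level, IL-6 plus HGF minus control, for the 32 measured members: coloured points are single hours (1 array against 1) and black marks the mean of 8, 12 and 24 h with its SE from limma. Pros1 lies at 0.76 to 1.01 on the right at all 3 hours, and Masp1, Klkb1 and F13b lie farthest to the left, between -1.69 and -0.57.

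Among the early genes of the lectin and classical pathways, the lectin pathway genes and C2 were lower, and the C1 proteases did not pass the test. Of 7 measured, 5 were lower at the matched hours, and their median difference was -0.45 log2. Masp1, the protease that helps start the lectin pathway, had log2 levels of 9.20, 8.82 and 7.18 in control at 8, 12 and 24 h and of 8.27, 7.13 and 5.54 with IL-6 plus HGF. It was lower at each of these hours, although the control at 24 h lay below the stimulated array at 8 h, so the groups overlapped. Its mean difference was -1.42 ± 0.15 log2 (SE, n = 3 hours), 2.67-fold lower (adjusted p = 0.00508). The other 4 Masp1 probe sets were lower as well, by less, with differences of -0.54 to -0.45.

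The mannose-binding lectins recognise sugars on microbial surfaces and carry the MASP proteases. Mbl2 levels at 8, 12 and 24 h were 13.02, 13.22 and 13.31 in control and 12.68, 12.48 and 12.42 with IL-6 plus HGF. These ranges did not overlap. The mean difference was -0.66 ± 0.12 log2 (SE, n = 3 hours), 1.58-fold lower (adjusted p = 0.0205). Mbl1 went from 8.21, 8.43 and 7.45 in control to 7.80, 7.68 and 6.51, a difference of -0.70 ± 0.11 log2 (adjusted p = 0.0162), with overlapping ranges because the control at 24 h was low. Masp2, the protease that cleaves C4 and C2, had 9.61, 9.71 and 9.02 in control against 9.41, 9.22 and 8.47, a difference of -0.42 ± 0.09 log2 (adjusted p = 0.0419). C2, the substrate that supplies the protease of the classical C3 convertase, had 9.01, 9.26 and 9.33 against 8.83, 8.69 and 8.73, with no overlap and a difference of -0.45 ± 0.10 log2 (adjusted p = 0.0443). The other probe sets of Masp2 (1) and C2 (2) had the same sign. The C1 proteases did not pass the test: the difference was -0.23 ± 0.08 for C1ra and 0.07 ± 0.12 for C1s1. Cfb, factor B of the alternative pathway, differed by -0.05 ± 0.09 log2, with a 95% confidence interval from -0.27 to 0.16.

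Among the terminal components, which assemble into the membrane attack complex, 3 of 6 were lower at the matched hours. C8a, the alpha chain of C8, had 9.57, 9.47 and 7.76 in control at 8, 12 and 24 h and 9.34, 8.65 and 7.09 with IL-6 plus HGF. The difference was -0.58 ± 0.12 log2 (SE, n = 3 hours), 1.49-fold lower (adjusted p = 0.0349). C8b, the beta chain, had 9.61, 9.58 and 8.63 against 9.33, 9.04 and 8.24, a difference of -0.40 ± 0.08 log2 (adjusted p = 0.0328). C6 had 8.04, 8.17 and 6.78 against 7.73, 7.36 and 6.44, a difference of -0.49 ± 0.11 log2 (adjusted p = 0.0472). In all 3 genes the stimulated array was lower at each hour, and the 24 h arrays of both conditions were the lowest, so the ranges overlapped. With 4 condition means over 17 arrays, the C8a difference was 0.11 log2 (adjusted p = 0.906), so its direction depended on the design. C8g, Hc (which encodes C5) and C9 had differences of -0.14, -0.13 and -0.12 log2, with adjusted p values from 0.362 to 0.490, and of 0.22, 0.24 and 0.32 log2 with the condition means (adjusted p from 0.513 to 0.683).

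Of the complement inhibitors, C4bp, which binds C4b and helps factor I destroy it, was lower. Its levels were 11.10, 11.16 and 10.55 in control and 10.76, 10.55 and 9.81 with IL-6 plus HGF. The arrays differed in the same direction at each hour, and the ranges overlapped. The difference was -0.56 ± 0.10 log2 (SE, n = 3 hours), 1.48-fold lower (adjusted p = 0.0186). Cfi, factor I itself, lay between 12.56 and 12.71 in control and between 12.25 and 12.52 with IL-6 plus HGF. These Cfi ranges did not overlap, but the difference of -0.24 ± 0.08 log2 did not pass the test (adjusted p = 0.129).

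The vitamin K-dependent factors moved in both directions. Of 6 measured, F10, F7 and F9 were lower at the matched hours and Pros1 was higher, while F2 (prothrombin) and Proc (protein C) did not pass the test. F10, the factor that activates prothrombin, had 9.79, 9.95 and 8.36 in control at 8, 12 and 24 h and 9.38, 8.84 and 7.35 with IL-6 plus HGF. Its difference was -0.85 ± 0.14 log2 (SE, n = 3 hours), 1.80-fold lower (adjusted p = 0.0170), and its other 2 probe sets gave -1.47 and -0.82. The stimulated array was lower at each hour, with ranges that overlapped through the low control at 24 h. F7, which starts coagulation together with tissue factor, had 8.86, 9.18 and 8.25 against 8.59, 8.47 and 7.46, a difference of -0.59 ± 0.11 log2 (adjusted p = 0.0275). F9, the factor lacking in haemophilia B, had 10.00, 10.00 and 9.66 against 9.80, 9.56 and 9.25, a difference of -0.35 ± 0.08 log2 (adjusted p = 0.0472). Both were lower with IL-6 plus HGF at every matched hour. F2 differed by -0.38 ± 0.10 log2 (adjusted p = 0.0630) and Proc by -0.23 ± 0.08 log2 (adjusted p = 0.146), although for Proc the range of 11.35 to 11.57 with IL-6 plus HGF lay just below that of 11.59 to 11.81 in control.

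Pros1 encodes protein S, the cofactor of activated protein C, and its level rose. In the 5 controls its log2 levels were 8.42, 8.56, 8.63, 8.68 and 9.16 at 0, 4, 8, 12 and 24 h, after 8.46 at -5 h. With IL-6 alone they were 8.49, 8.68, 8.90 and 9.13 at 1, 2, 3 and 4 h. With IL-6 plus HGF they ran from 9.17 at 5 h, with a median of 9.40, to 10.17 at 24 h. Every IL-6 plus HGF array lay above every control, and the levels with IL-6 were in the order of the hours. At 8, 12 and 24 h the differences from control were 0.76, 0.93 and 1.01, with a mean of 0.90 ± 0.08 log2 (SE), 1.86-fold higher (adjusted p = 0.00319). Pros1 passed the test in the 3 fits that left out a pair, and without the hour block its adjusted p was 0.152. At 4 h, with IL-6 alone, the single stimulated array was already 0.57 log2 above control, the highest difference of the 32 members.

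The 250 bases before the RefSeq start of Pros1 are shown because this was the member that was higher at the matched hours; they hold a match to the STAT motif TTCNNNGAA, in capitals, 92 to 84 bases before the start (RefSeq, GRCm38.p6, chr16:62854057-62854306, plus strand, 5′ to 3′).
Pros1: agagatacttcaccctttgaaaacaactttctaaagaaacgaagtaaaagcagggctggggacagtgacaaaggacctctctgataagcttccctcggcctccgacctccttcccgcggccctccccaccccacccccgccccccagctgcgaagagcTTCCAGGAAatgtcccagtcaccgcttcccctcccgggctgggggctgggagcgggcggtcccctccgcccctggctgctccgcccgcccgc

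Of 4 contact and intrinsic factors measured, Klkb1 was lower at the matched hours and the other 3 did not pass the test. Klkb1 encodes plasma prekallikrein, which releases bradykinin from kininogen and activates factor XII. In the 5 controls its log2 levels were 7.08, 6.81, 6.85, 7.25 and 7.13 at 0, 4, 8, 12 and 24 h. They were 6.80, 6.60, 6.47 and 6.33 with IL-6 at 1, 2, 3 and 4 h, and between 5.91 and 6.45 (median 6.18) over the 8 arrays with IL-6 plus HGF. All IL-6 plus HGF arrays lay below all controls, and the 4 arrays with IL-6 went down hour by hour. The difference at the matched hours was -1.05 ± 0.13 log2 (SE, n = 3 hours), 2.06-fold lower (adjusted p = 0.00773). Hour by hour, this difference was -0.66, -1.34 and -1.14 at 8, 12 and 24 h. Klkb1 was the member that passed this test in every alternative fit, with adjusted p values from 0.000180 to 0.0299. F12, Kng1 (kininogen) and F11 differed by -0.38 ± 0.11, -0.29 ± 0.08 and -0.18 ± 0.16 log2 and did not pass the test (adjusted p from 0.0816 to 0.543).

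The promoter window of Klkb1 is shown beside that of Pros1 because these members had the largest differences of either sign at 4 h. Its capitals mark a match to the C/EBP motif TTGCNNAA, read on the opposite strand, 177 to 170 bases before the start; the STAT letters were not in this window (RefSeq, GRCm38.p6, chr8:45294836-45295085, minus strand, 5′ to 3′).
Klkb1: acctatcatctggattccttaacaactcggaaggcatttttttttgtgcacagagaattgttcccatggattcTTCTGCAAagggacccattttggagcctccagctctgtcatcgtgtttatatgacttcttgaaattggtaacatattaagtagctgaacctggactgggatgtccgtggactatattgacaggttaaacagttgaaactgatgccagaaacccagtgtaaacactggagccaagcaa

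**Figure D3:**
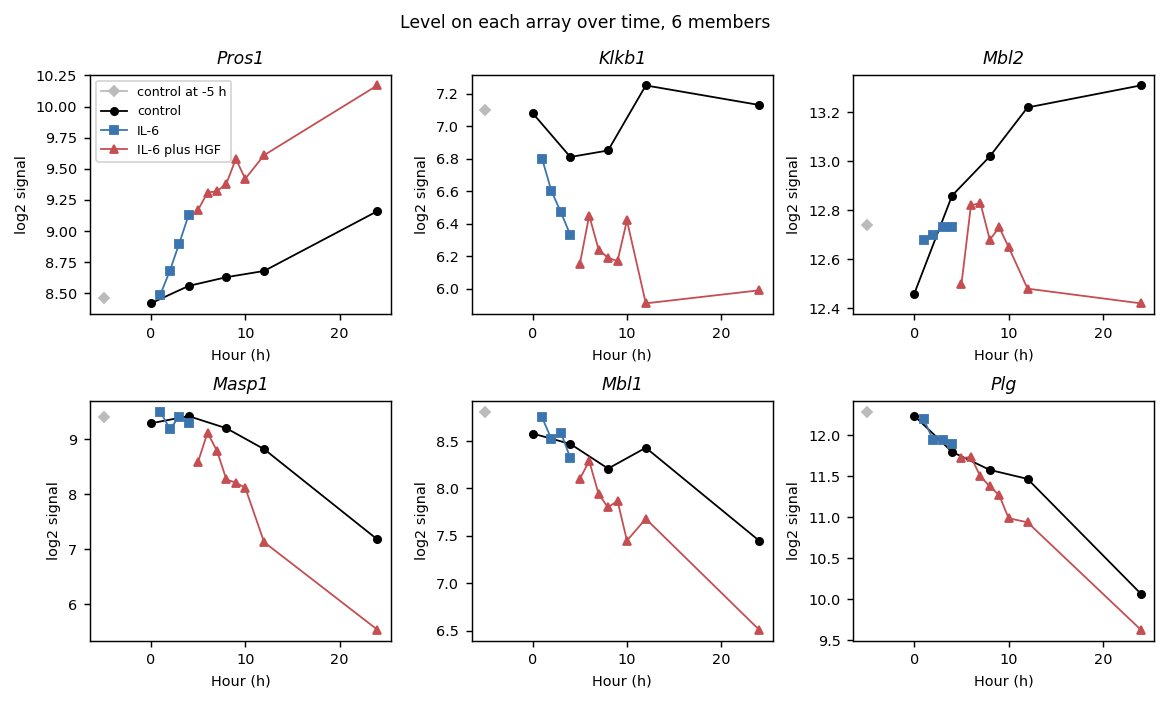
Log2 level against hour on each array for 6 members; grey is the control at -5 h, black the later controls, blue IL-6 and red IL-6 plus HGF, with 1 array per point and a separate vertical scale per gene. Pros1 and Klkb1 separate from control during IL-6 alone, and Mbl2 separates after 4 h as the control goes up to 13.31. Masp1, on its brightest probe set, Mbl1 and Plg go down in both conditions.

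F13b, the carrier subunit of the factor that cross-links fibrin, was among the members with the largest differences. Its levels were 8.32, 8.39 and 7.51 in control at 8, 12 and 24 h and 7.75, 7.33 and 6.29 with IL-6 plus HGF. The stimulated array was lower at every hour, while the control at 24 h lay below the stimulated array at 8 h. The difference was -0.95 ± 0.13 log2 (SE, n = 3 hours), 1.93-fold lower (adjusted p = 0.00982). Plg, the precursor of plasmin, had 11.58, 11.47 and 10.07 in control and 11.38, 10.94 and 9.63 with IL-6 plus HGF, a difference of -0.39 ± 0.09 log2 (adjusted p = 0.0453). With 4 condition means over 17 arrays, whose hours were not matched, the Plg difference was 0.11 log2 (adjusted p = 0.886). Plg, like C6, C8b and F9, passed none of the 3 fits that left out a pair. The remaining members did not pass the test: F5, the cofactor of factor X, differed by -0.11 ± 0.09 log2, Vtn (vitronectin) by -0.26 ± 0.08, Tfpi (tissue factor pathway inhibitor) by -0.15 ± 0.08, and Hgfac, a protease that activates HGF, by -0.16 ± 0.08.

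For IL-6 alone, the 4 arrays at 1 to 4 h were set against the controls at 0 and 4 h in a fit of 4 condition means over 17 arrays. No member passed the test in either direction, against 0.022% of all genes higher and 0% lower. Of the members, 1 (Klkb1) had an unadjusted p under 0.05 (-0.39 ± 0.16 log2, limma adjusted p = 1.00), beside 656 of all 18193 genes. The spread in this fit includes change over time, and the standard error reached 0.72 log2 for Masp1, so the 95% confidence interval of its difference ran from -1.53 to 1.52. Pros1 differed by 0.31 ± 0.23 log2 (95% confidence interval -0.17 to 0.79). The median difference of the members was 0.01 log2 and that of all genes -0.01. Over the same arrays, 11 of 12 Kupffer cell markers were below the early controls, with a median of -0.52 log2, and none passed the test (8 had an unadjusted p under 0.05); their part in the members' values was not tested.

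The slope over the 4 arrays with IL-6, a test added after the data had been seen, described the order in time. Per doubling of the hour, Pros1 had a slope of 0.31 ± 0.06 log2 and Klkb1 had -0.23 ± 0.05 log2. Neither passed the test (limma, adjusted p = 0.355 and 0.431). With an intensity trend and robust variance in limma, Pros1 had an adjusted p of 0.0137. In the main fit 0% of all genes were called higher and 0% lower, with 1470 genes at an unadjusted p under 0.05, 7 of them members.

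The difference between the later and the early window was tested in the fit of 4 condition means. The early window was IL-6 against control at 0 and 4 h. The later window set all 8 arrays with IL-6 plus HGF from 5 to 24 h against controls at 8, 12 and 24 h. Its hours were thus not matched, unlike those of the test with the hour as a block. No member passed in either direction, beside 0.011% of all genes higher and 0.011% lower. An unadjusted p under 0.05 was found for 2 of the 32 members and for 1419 of all 18193 genes. The 2 members were Mbl2, with -0.60 ± 0.16 log2 (limma adjusted p = 0.236), and Klkb1, with -0.49 ± 0.20 log2 (adjusted p = 0.550). Mbl2 at 4 h was 12.86 in control and 12.73 with IL-6, a difference of -0.13 log2. By 24 h it had reached 13.31 in control and 12.42 with IL-6 plus HGF. The shift of Pros1 between the windows was 0.36 ± 0.29 log2, with a 95% confidence interval from -0.25 to 0.97.

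Over the 8 arrays with IL-6 plus HGF, from 5 to 24 h, 20 of the 32 members fell with time and 2 rose (62.5% and 6.25%), whereas 4.84% of all genes fell and 6.27% rose in the same test of a slope on log2 of the hour. The median slope of the members was -0.48 log2 per doubling of the hour, and that of all genes -0.01. With centring, 1183 genes fell and 958 rose in place of 880 and 1140, and 21 members fell and 2 rose. All 6 measured terminal components fell, with slopes from -1.19 for C8a to -0.49 for Hc. Over the 8 arrays C8a ranged from 7.09 (median 9.33) to 9.72, C9 from 9.08 (median 10.51) to 10.83, and C8g from 9.35 (median 10.80) to 11.07. In each of these genes the highest value was at 5 h and the lowest at 24 h.

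Outside the terminal components, Masp1, F10, Plg and F13b had the steepest falls. Plg had a slope of -0.95 ± 0.08 log2 per doubling (adjusted p = 0.000156), from 11.74 at 6 h to 9.63 at 24 h with a median of 11.32. The slope was -1.07 ± 0.12 for F10 (adjusted p = 0.000433) and -0.82 ± 0.09 for F13b (adjusted p = 0.000563). Masp1 had the most negative slope of the set on its brightest probe set, -1.55 ± 0.17 (adjusted p = 0.000448), but its other 4 probe sets had positive slopes of 0.11 to 0.32, so the direction for Masp1 depended on the probe set. Mbl1, C4bp, F7, Masp2, Vtn, F12, F2, F9, Kng1 and C1ra also fell, with slopes from -0.74 to -0.29. Pros1 rose by 0.43 ± 0.06 (adjusted p = 0.00120) and C1s1, a protease of the C1 complex, by 0.44 ± 0.07 (adjusted p = 0.00448). C1s1 ranged from 10.96 (median 11.13) to 12.00, and its high value was the array at 24 h. Without the 24 h array only C8a, Plg, C9 and F10 fell and none of the members rose, beside 194 falling and 50 rising of all genes. Without the array at 10 h 21 members fell and 2 rose, beside 1326 and 1769 of all genes.

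**Figure D4:**
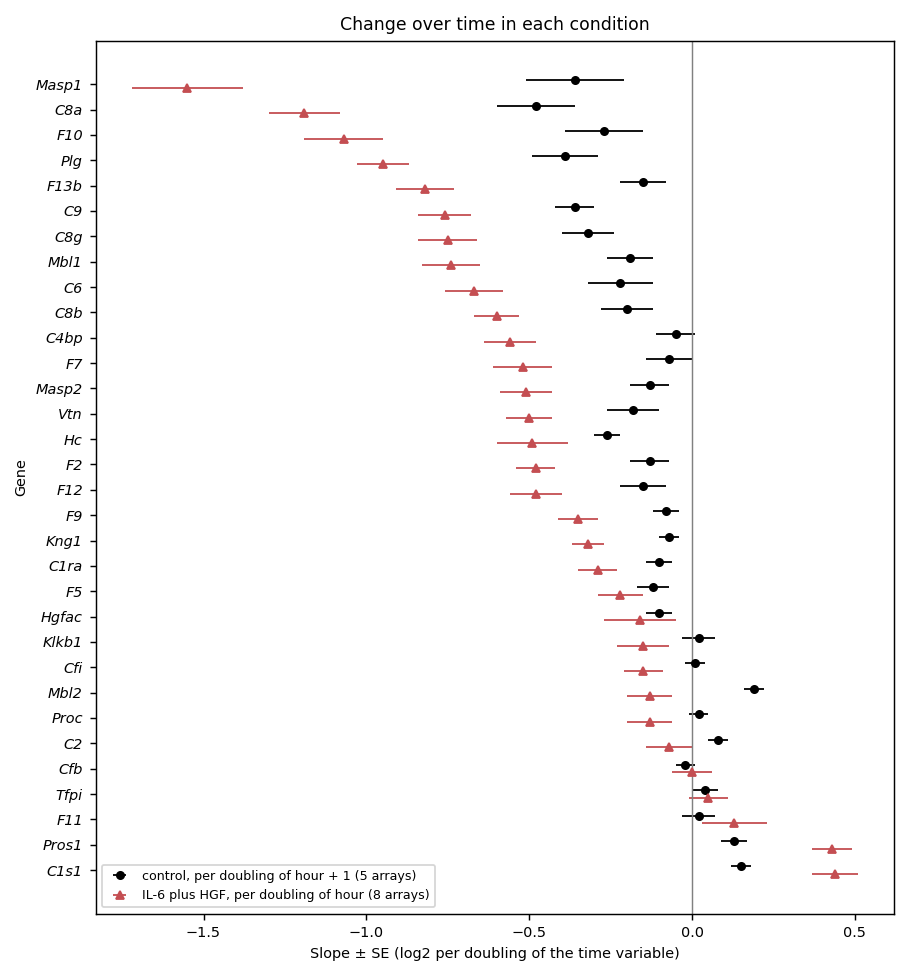
Slope of log2 level over time with its SE for the 32 measured members, in control (black, 5 arrays, per doubling of hour plus 1) and with IL-6 plus HGF (red, 8 arrays, per doubling of the hour); the horizontal scales differ in their time variable, so the colours are not a test against each other. Most red points lie left of 0, from -1.55 for Masp1, and those of Pros1 and C1s1 lie at 0.43 and 0.44.

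Without a stimulus, some members also went to lower levels over time. Hours in culture and hours since the change of medium cannot be told apart in these controls. Over the 5 controls from 0 to 24 h, C9 and Hc fell and Mbl2 rose (6.25% and 3.12% of the members, against 1.47% of all genes falling and 2.14% rising). C9 went through 11.27, 10.81, 10.43, 10.22 and 9.45, a slope of -0.36 ± 0.06 log2 per doubling of hour plus 1 (adjusted p = 0.0265). Hc went through 11.02, 10.69, 10.49, 10.14 and 9.77, a slope of -0.26 ± 0.04 (adjusted p = 0.0321). Both went down at every step. Mbl2 went up at every step, from 12.46 through 12.86, 13.02 and 13.22 to 13.31, a slope of 0.19 ± 0.03 (adjusted p = 0.0257). With IL-6 plus HGF its slope was -0.13 ± 0.07 (adjusted p = 0.344). In control, C8a and Plg had slopes of -0.48 ± 0.12 and -0.39 ± 0.10 that did not pass the test (adjusted p = 0.0848 and 0.0787), and their lowest control values, 7.76 and 10.07, were at 24 h. Masp1 had a control slope of -0.36 ± 0.15 on its brightest probe set (limma adjusted p = 0.216) and of -0.03 to 0.16 on the others. Without the control at 4, 8 or 12 h, no member passed, beside 9 to 66 falling and 14 to 104 rising of all genes. Without the control at 24 h 4 members fell and 1 rose, beside 275 and 391 of all genes. Over all genes 267 fell and 390 rose, and with centring 416 fell and 320 rose, with the same counts of members. With hours in place of their logarithm, 15 members fell and 3 rose, beside 562 falling and 1123 rising of all genes.

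Whether the slopes differed between the conditions was tested over 12 arrays. No member passed in either direction, beside 0.0385% of all genes with a higher and 0.0605% with a lower slope under IL-6 plus HGF. An unadjusted p under 0.05 was found for 11 of the 32 members and for 1144 of all 18193 genes. Among the 11 members were Mbl2, with a difference of -0.31 ± 0.10 log2 per doubling (limma adjusted p = 0.480), and F13b, with -0.48 ± 0.15 (adjusted p = 0.491). No member passed when the 24 h array of either condition was left out. For the terminal components the differences ran from -0.34 ± 0.20 for C8a to -0.12 ± 0.14 for Hc. The fall of these members over time with IL-6 plus HGF was thus not shown to differ from that in control.

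Other genes of the same pathways were taken from lists that do not overlap the set. Of 20 measured complement genes (of 28 listed), Cfhr2, a factor H-related gene, was lower at the matched hours (-1.87 ± 0.18 log2, adjusted p = 0.00367) and none was higher, with a list median of -0.03. Of 29 measured coagulation genes (of 33 listed), 4 were higher and 7 lower, with a list median of -0.16. The higher genes were the fibrinogen chains Fga (0.81 ± 0.09 log2, adjusted p = 0.00587) and Fgb (0.58 ± 0.07, adjusted p = 0.00813), Plaur, the urokinase receptor (0.42 ± 0.08), and F3, tissue factor (0.33 ± 0.08). The fibrinogen chain Fgg differed by 0.48 ± 0.11 (adjusted p = 0.0517). Among the lower genes were Cpn2 (-2.28 ± 0.34 log2, adjusted p = 0.0130), a subunit of carboxypeptidase N, the thrombin receptor thrombomodulin, Thbd (-0.84 ± 0.16), the vitamin K-dependent protein Z, Proz (-0.82 ± 0.10), and Cpn1 (-0.73 ± 0.13), the other subunit of carboxypeptidase N. Ggcx and Vkorc1, enzymes of vitamin K-dependent carboxylation, were also lower, with -0.68 ± 0.09 and -0.66 ± 0.10 log2 (adjusted p = 0.00982 and 0.0145). Both were singled out after their values were seen. Vkorc1l1, the Vkorc1-like gene of the same list, differed by 0.21 log2 and did not pass the test. Without the pair at 24 h, Cfhr2, Fga, Fgb, Cpn2, Thbd, Proz and Ggcx passed, and Plaur, F3, Cpn1 and Vkorc1 did not (adjusted p from 0.0550 to 0.177).

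Over time with IL-6 plus HGF, 4 of the 29 coagulation genes outside the set rose and 11 fell. Procr, the endothelial protein C receptor, had the steepest rise at 0.79 ± 0.13 log2 per doubling (adjusted p = 0.00343). Cpn2 (-1.20 ± 0.26), Hrg, histidine-rich glycoprotein (-0.95 ± 0.10), Serpina10, the inhibitor that works with protein Z (-0.80 ± 0.18), and Serpinc1, antithrombin (-0.75 ± 0.09), had the steepest falls. Of the 20 complement genes, Cd59a, which blocks the membrane attack complex, rose (0.47 ± 0.12, adjusted p = 0.0285), and Cfhr2 and Fcna fell. Most of these calls were lost without the array at 24 h: Hrg alone fell among the coagulation genes (-0.56 ± 0.09, adjusted p = 0.0249), none of them rose, and no gene of the complement list passed. Of 6 hepatocyte markers, 2 were lower at the matched hours: Hnf4a, a transcription factor of hepatocyte identity, with a difference of -0.67 ± 0.10 log2 (adjusted p = 0.0130) and Cps1, a urea cycle enzyme, with -1.48 ± 0.23 (adjusted p = 0.0147). Both passed without the pair at 24 h as well (adjusted p = 0.0342 and 0.0474). Alb, at 14.67 to 14.89 on all 18 arrays and so close to the top of the scale, differed by -0.04 ± 0.07. The part of these changes in the members' values was not tested.

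Promoter windows of 250 bases before the start were found in RefSeq (GRCm38.p6) for 25 of the 32 measured members and searched on both strands. These 25 genes had 28 windows. The STAT motif TTCNNNGAA was in 5 of the 28 (Masp2, C8a, F9, Pros1 and Hgfac) and in 7.02% of all 32851 windows. The C/EBP motif TTGCNNAA was in 5 of the 28 windows and in 9.56% of all windows, and the HNF4 motif CAAAGTCCA in 0 of the 28 and 0.384% of all windows. The HNF1 motif GTTAAT was in the windows of 8 genes (C1ra, Hc, C8a, C8b, C4bp, F13b, Hgfac and Vtn) and in 6.43% of all windows, and 4 of these 8 genes were lower at the matched hours, as were 3 of the 5 genes with the STAT letters and 12 of all 25 members with a window. No matches overlapped one another in the members' windows. The start used for a window can lie inside the outermost annotated span of the gene, so not every counted match lies upstream of that span. The STAT letters of Masp2 and F9, the HNF1 letters of Hc and F13b, and the C/EBP letters of F9 and F11 lay inside it. A match is a run of letters and not a bound site. Windows of C8a, C8b and C4bp, which were lower at the matched hours, are shown for the HNF1 letters, in capitals, together with the STAT letters of C8a, the earlier capitals in its stretch. Bases inside the outermost annotated span of the gene were left out of these stretches, but not of the search. The stretches are chr4:104876488-104876648 (minus strand) for C8a, chr4:104766067-104766316 (plus strand) for C8b and chr1:130661658-130661868 (minus strand) for C4bp, each 5′ to 3′.
C8a: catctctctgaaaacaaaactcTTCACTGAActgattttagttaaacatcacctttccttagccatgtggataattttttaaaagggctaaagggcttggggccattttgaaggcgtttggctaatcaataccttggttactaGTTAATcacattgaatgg
C8b: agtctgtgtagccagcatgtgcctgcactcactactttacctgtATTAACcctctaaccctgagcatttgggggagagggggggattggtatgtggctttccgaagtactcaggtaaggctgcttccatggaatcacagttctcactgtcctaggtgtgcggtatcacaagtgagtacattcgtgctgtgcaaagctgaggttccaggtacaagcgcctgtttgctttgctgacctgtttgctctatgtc
C4bp: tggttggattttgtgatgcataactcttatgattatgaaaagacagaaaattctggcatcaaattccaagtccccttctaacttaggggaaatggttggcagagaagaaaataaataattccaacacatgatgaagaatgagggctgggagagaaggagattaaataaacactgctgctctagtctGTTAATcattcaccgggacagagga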

How the data were processed

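RNA of 18 samples was measured on 1-colour Affymetrix arrays with 45101 probe sets. The deposited values ran from 2.095 to 15.049 and were read as log2 signals from this range. How the authors summarised and normalized the arrays is not given in the sources used here, so the centring stays unknown. Array medians lay between 5.47 and 5.57, and the values were used without further scaling. The number of arrays limits the precision.

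Groups came from the stimulus and hour in the labels. The brightest probe set with a single gene symbol (highest mean over 18 arrays) stood for each gene, which left 18193 genes; 34958 probe sets had 1 symbol, 932 several and 9211 none, and 8 members had several probe sets. Tests used limma 3.58.1 in R 4.3.3 (lmFit, eBayes); p-values were adjusted by Benjamini-Hochberg across the 18193 genes and called under 0.05, and the fits were tested on simulated data. Differences are in log2; slopes are per doubling of the hour (in control, of hour plus 1). Pairing was by hour.

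Named were all measured members, with array values for those past the threshold at matched hours and up to 6 more from the trends, and up to 4 genes per direction of the other pathway lists. The members and lists were chosen with earlier results of these data known. Alternatives were quantile normalization, centring, a filter at the 40th percentile of mean signal, robust variance, the mean of probe sets, other designs and leaving out arrays. A fit over 4 matched hours, the slope under IL-6 alone and the other lists without the 24 h arrays were added after the data had been seen.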

Additional observations from a re-analysis of the deposited data

Results flagged for a closer look

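Of 96 groups of values (32 members in control, IL-6 and IL-6 plus HGF), 23 held an array far from the nearest of the others for the range of its group. A rate of about 1 in 20 would hold for replicates of 1 condition and hour, and these arrays were not such replicates. The count is therefore a description and not an excess over chance. The arrays of a group differ in hour, and 10 of these values were control at 24 h, 11 IL-6 plus HGF at 24 h and 2 IL-6 at 1 h.

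In control at 24 h, the low values were Masp1 at 7.18, Masp2 at 9.02, C6 at 6.78, C8b at 8.63, C4bp at 10.55, F2 at 11.63, F10 at 8.36, F12 at 10.43, F13b at 7.51 and Vtn at 12.23. With IL-6 plus HGF at 24 h, the low values were C6 at 6.44, C8a at 7.09, C8b at 8.24, C8g at 9.35, C9 at 9.08, F7 at 7.46, F10 at 7.35, Plg at 9.63 and Vtn at 12.01, and the high values were C1s1 at 12.00 and Pros1 at 10.17. With IL-6 at 1 h, Plg at 12.20 and Hgfac at 10.55 were high.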

How the results depend on the processing

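At the matched hours the main fit called 15 members and 1176 of all genes lower. In the other fits the count of all lower genes follows that of members in brackets. It was 9 (873) with quantile normalization, 10 (894) with centring and 15 (962) with the mean of probe sets. With the filter on dim genes it was 16 (1378 of 10916), with the spline of time 20 (2096), and with intensity trend and robust variance 21 (1498). With 8 arrays at 4 matched hours, added after the data had been seen, it was 5 (751). It was 1 (94) without the hour block and 3 (1092) with 4 condition means over 17 arrays. When a pair was left out it ran from 3 to 11 (407 to 615). Without the hour block the count of higher members was 0, beside 48 of all genes. With the 4 condition means, whose hours were not matched, C8a and Plg turned to 0.11 log2 each (adjusted p = 0.906 and 0.886). The slope with IL-6 plus HGF gave 4 to 21 lower and 0 to 2 higher members when an array was left out, the lowest counts without 24 h. Over all genes these fits gave 194 to 1326 lower and 50 to 1769 higher. In control, rising members numbered 2 with the filter on dim genes, 2 with robust variance and 3 with hours in place of their logarithm. All rising genes in these fits numbered 606, 568 and 1123. With hours 15 members fell, beside 562 of all genes. Leaving out an array gave 0 to 4 falling and 0 to 1 rising members, beside 9 to 275 and 14 to 391 of all genes. The slope with IL-6 alone called 1 rising member with robust variance, beside 82 rising and 140 falling of all genes. The causes were not tested. Of the 16 members called at matched hours, 4 held in all fits that left out a pair. Centring moved the median of all genes there to 0.06. No paired analysis by replicate number was possible because the labels carry none; the pairing was by hour.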
